A study of Mus musculus with 12 samples.

Results

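Phase II conjugation enzymes attach a polar group to drugs, steroids, bile acids and reactive lipid products, so that these leave the liver in bile or urine. The genes described here are the soluble glutathione S-transferases (Gst classes a, k, m, o, p, t and z), the UDP-glucuronosyltransferases (Ugt families 1, 2 and 3) and the sulfotransferases (Sult) that had a probe set of their own on the array. They were chosen by symbol, with Sult1e1 left out and with earlier results of these data known. Each gene was represented by its brightest probe set on average. This gave 36 of 12393 genes, of which 18 were glutathione S-transferases, 8 UDP-glucuronosyltransferases and 10 sulfotransferases. All 36 were tested and none was filtered out.

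Liver RNA of 12 male mice was hybridized to Affymetrix mouse arrays, 1 array per mouse, to ask how dietary all-trans retinoic acid (RA) and hepatocyte retinoid X receptor alpha (RXRα) shape hepatic gene expression. The groups held 3 arrays each: RXRα-deficient mice on RA (KO_RA), wild type mice on RA (WT_RA), RXRα-deficient mice on normal diet (KO) and wild type mice on normal diet (WT). RA was given at 150 mg/kg diet for 7 days, both genotypes had the C57BL/6 background, and the wild type mice were 12 weeks old. In the KO mice a Cre recombinase driven by the albumin promoter removed the exon for the DNA-binding domain of RXRα, so the loss is limited to albumin-expressing cells, and a shortened protein with its ligand-binding domain is still made. The arrays carry biological replicate numbers in their titles. Values are log2 expression, differences are log2 changes with standard errors (SE, n = 3 arrays per group), and a gene was called when its limma p-value, adjusted over all 12393 genes by Benjamini-Hochberg, was under 0.05. The number of arrays limits the precision of every value. Levels of different probe sets cannot be set against each other.

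As background, glutathione S-transferases join glutathione to electrophiles, UDP-glucuronosyltransferases transfer glucuronic acid from UDP-glucuronic acid, and sulfotransferases transfer sulfate from the activated donor PAPS. In hepatocytes many of these genes respond to the xenobiotic receptors CAR and PXR and to PPARα, each of which binds DNA together with an RXR, while several glutathione S-transferases respond to the oxidative stress factor NRF2. RA itself is cleared in part by glucuronidation.

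Array medians were alike, at 6.26 to 6.35. WT_RA 3 and KO 1 stood apart in the 3' control of Actb (9.40 and 9.12, against 12.1 to 12.9 on the other 10 arrays), so the results below are also given without both where that changes a call. Rxra differed by -0.03 between KO and WT (adjusted p = 0.949), but its probe set was not mapped to exons, so it checks nothing about the deletion. The summed level of 7 hepatocyte markers was 16.34 to 16.42 in KO_RA, 16.19 to 16.38 in WT_RA, 16.17 to 16.31 in KO and 16.33 to 16.42 in WT, a sum carried by its brightest probe sets. Single markers ran from -0.83 to 0.13 for KO against WT, and Tat rose in KO_RA against KO (0.92 ± 0.16, limma adjusted p = 0.0376). Markers of Kupffer cells and macrophages, all 10 above the lower quartile of the arrays on average, summed to 11.41 to 11.68 in KO_RA, 11.45 to 12.40 in WT_RA, 11.26 to 13.39 in KO and 10.72 to 10.98 in WT. In whole liver, fewer cells of a type and less RNA per cell cannot be told apart.

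Of the 36 conjugation genes, 11 were called in at least 1 of the 5 contrasts, and they made 14 calls. With RXRα deficiency 6 genes were called on the normal diet, where 1.32% of all genes were. Of these 2 rose and 4 fell in KO mice, beside 0.484% and 0.831% of all genes. Under RA 6 genes were called, where 3.95% of all genes were, 2 of them higher and 4 lower in KO_RA, beside 0.928% and 3.03% of all genes. RA lowered 2 genes in KO mice, where 0.5% of all genes were called, 0.274% as higher and 0.226% as lower. In wild type mice RA changed 0 of 36 past the threshold, where limma called 1.27% of all genes, 0.871% as higher and 0.403% as lower. An unadjusted limma p under 0.05 was found there for 11 of the 36, against 1454 of all 12393 genes (11.7%). For KO against WT, KO_RA against WT_RA and KO_RA against KO, 12, 15 and 10 of the 36 had such a p. The shares over all genes were 16.3%, 17.8% and 14%. The contrast of the RA effects between the genotypes called 0 of 36, with 7 at an unadjusted p under 0.05 beside 11.7% of all genes, and it called 1 of 12393 genes, or 0.00807%. Groups that did not overlap were more common than calls. In KO against WT they were 7 higher and 5 lower (9.85% and 10.2% of all genes), and in KO_RA against WT_RA 9 higher and 9 lower (11.3% and 14.3% of all genes). In KO_RA against KO they were 1 higher and 10 lower (8.58% and 12.3% of all genes), and in WT_RA against WT 3 higher and 10 lower (8.77% and 7.86% of all genes). The median log2 change of the 36 genes was 0.06 for KO against WT, 0.05 for KO_RA against WT_RA, -0.15 for KO_RA against KO and -0.17 for WT_RA against WT, against 0.02, 0.01, -0.03 and -0.01 over all genes.

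**Figure D1:**
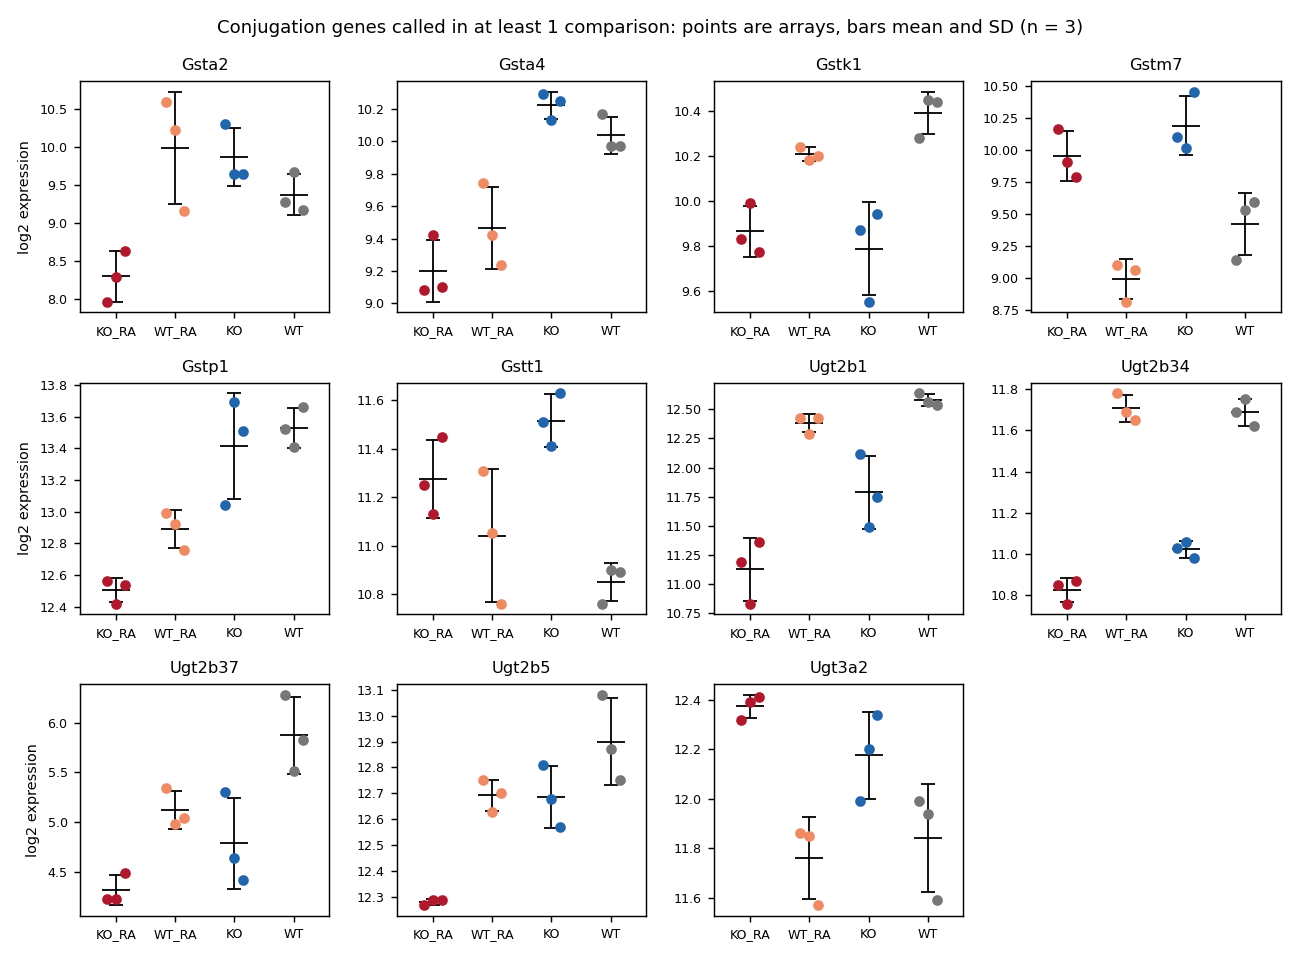
Log2 expression of the 11 called genes on each array, with points for arrays and bars for the mean and SD of 3 arrays (KO_RA, WT_RA, KO and WT from left to right); each panel has its own vertical scale, which does not start at 0. Ugt2b34 lies at 10.76 to 11.06 on the 6 arrays of RXRα-deficient mice and at 11.62 to 11.78 on the 6 wild type arrays.

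Of the 4 calls that held whichever array was left out, 3 were of UDP-glucuronosyltransferases. With RXRα deficiency Ugt2b1, Ugt2b34 and Ugt2b37 fell on the normal diet, Ugt2b1, Ugt2b34 and Ugt2b5 fell under RA, and Ugt3a2 rose under RA. These Ugt2b genes lie together on mouse chromosome 5, in the order Ugt2b34, Ugt2b1, Ugt2b5, Ugt2b37, Ugt2a3 and Ugt2b38 among the genes measured. The stretch before each of the 5 Ugt2b start sites is shown because this cluster carries most of the calls of its family, with Ugt2b38 as a close relative that was not called. Each is 100 bases long, ends 1 base before the start site, and is read 5′ to 3′ on the minus strand, from RefSeq on build GRCm38.p6. Capitals mark GTTA and TAAC with 5 bases between them, the palindromic form of a site of the hepatocyte factor HNF1, and AGGTCA, the core hexamer bound by RXR and its partners.
Ugt2b1 (chr5:86926504-86926603): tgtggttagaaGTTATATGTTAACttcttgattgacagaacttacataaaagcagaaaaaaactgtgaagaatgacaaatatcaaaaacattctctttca
Ugt2b34 (chr5:86906938-86907037): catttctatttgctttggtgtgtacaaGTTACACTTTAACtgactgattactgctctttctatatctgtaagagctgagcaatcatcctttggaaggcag
Ugt2b37 (chr5:87254789-87254888): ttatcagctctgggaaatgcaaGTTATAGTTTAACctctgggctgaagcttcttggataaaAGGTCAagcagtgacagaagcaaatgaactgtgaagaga
Ugt2b38 (chr5:87424204-87424303): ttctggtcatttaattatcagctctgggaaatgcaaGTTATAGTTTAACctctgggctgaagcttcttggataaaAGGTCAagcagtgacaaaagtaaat
Ugt2b5 (chr5:87140341-87140440): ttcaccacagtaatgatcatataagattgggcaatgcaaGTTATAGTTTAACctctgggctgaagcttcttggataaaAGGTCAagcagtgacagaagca

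The HNF1 letters stood in all 5 stretches, starting at -89 from the start site in Ugt2b1 and at -73, -78, -64 and -61 in Ugt2b34, Ugt2b37, Ugt2b38 and Ugt2b5. They were also found at -130 in Ugt3a1. This spelling was chosen after the letters had been seen. Over windows of 250 bases before to 50 bases after the start, searched on both strands, it was in 15% of the 40 windows of the 31 conjugation genes that had one, and in 0.332% of all 32851 windows. The conjugation gene windows with it were those of the 5 Ugt2b genes shown and of Ugt3a1, so this comparison is no test. AGGTCA was in 15% of the conjugation gene windows and in 16.3% of all windows. Among the Ugt2b genes it stood in Ugt2b37, Ugt2b38 and Ugt2b5, at -39, -25 and -22, and it was not spelled out in the windows of Ugt2b1 and Ugt2b34. Direct repeats of AGGTCA with 1, 4 or 5 bases between the copies were in 0 of the 40 windows, and in 0.0396%, 0.0152% and 0.00913% of all windows. Over all alignment columns, gaps included, the stretches of Ugt2b37, Ugt2b38 and Ugt2b5 were 67.8% to 81.7% identical to each other. Pairs with Ugt2b1 or Ugt2b34 were 41.5% to 56% identical. Shared letters lie at different distances from the start sites, so unpaired ends lower these percentages, which do not rank the pairs by closeness. Ugt2b37 and Ugt2b38 had 84 identical bases over 114 alignment columns, gaps included (73.7%). Their log2 changes in KO against WT were -1.09, which passed, and 0.93, which did not. These matches describe letters and not binding.

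Ugt2b34 was at 10.85, 10.76 and 10.87 in KO_RA, against 11.78, 11.69 and 11.65 in WT_RA. On the normal diet it was at 11.03, 11.06 and 10.98 in KO, against 11.69, 11.75 and 11.62 in WT. Every array of RXRα-deficient mice was therefore below every wild type array, on either diet. Ugt2b34 fell by 0.88 ± 0.08 under RA (limma adjusted p = 0.000143), 1.84-fold lower, and by 0.67 ± 0.08 on the normal diet (limma adjusted p = 0.00197), 1.59-fold lower. Both calls held when any 1 of the 12 arrays was left out. Another Ugt2b34 probe set fell by 1.01 ± 0.17 under RA (limma adjusted p = 0.013 over all probe sets) and by 1.03 ± 0.17 on the normal diet (adjusted p = 0.0231). It read 9.62 to 9.79 in KO_RA against 10.45 to 10.84 in WT_RA, and 9.30 to 9.97 in KO against 10.49 to 10.92 in WT. The Ugt2b genes are close relatives, and binding of their RNA to each other's probes was not tested for any of them.

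Ugt2b1 was at 11.19, 10.83 and 11.36 in KO_RA, against 12.43, 12.29 and 12.43 in WT_RA. In KO it was at 12.12, 11.49 and 11.75, against 12.64, 12.56 and 12.54 in WT. The wild type arrays of either diet were close together, and all of them lay above all arrays of RXRα-deficient mice. Ugt2b1 fell by 1.26 ± 0.16 under RA (limma adjusted p = 0.00134), 2.39-fold lower, and this call held without any 1 array. On the normal diet it fell by 0.79 ± 0.16 (limma adjusted p = 0.0338), 1.73-fold lower. That call was lost without any of WT 1, WT 2, WT 3, KO 2 or KO 3, with adjusted p up to 0.116. KO_RA against KO gave -0.66 ± 0.16 without overlap between the groups, but this did not pass (limma adjusted p = 0.0839).

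The Ugt2b37 probe set read near the floor of the arrays. It was at 5.30, 4.64 and 4.42 in KO, against 6.28, 5.51 and 5.83 in WT, and at 4.23, 4.23 and 4.49 in KO_RA, against 5.34, 4.98 and 5.04 in WT_RA. The KO and WT arrays did not overlap, nor did those of KO_RA and WT_RA, yet 5 of the 12 arrays were below their lower quartile (4.87 to 5.02), so the size of the change is uncertain. It fell by 1.09 ± 0.22 on the normal diet (limma adjusted p = 0.0394), 2.12-fold lower. This call was lost without any of WT 1, WT 3, WT_RA 2, KO 2, KO 3, KO_RA 1, KO_RA 2 or KO_RA 3 (adjusted p up to 0.149.) Under RA the change was -0.80 ± 0.22 and did not pass (limma adjusted p = 0.0729). That change passed without WT 1 (limma adjusted p = 0.0473), without KO 1 (adjusted p = 0.0269) and with a replicate block (adjusted p = 0.044). It also passed with array weights (limma adjusted p = 0.0265) and with only the arrays compared (adjusted p = 0.0188).

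Ugt2b5 was at 12.27, 12.29 and 12.29 in KO_RA, against 12.75, 12.63 and 12.70 in WT_RA, with no overlap. It fell by 0.41 ± 0.10 under RA (limma adjusted p = 0.0351), 1.33-fold lower. Values in KO (12.81, 12.68 and 12.57) and WT (13.08, 12.87 and 12.75) overlapped. The RA call was lost without any of WT 2, WT_RA 1, WT_RA 2, WT_RA 3, KO_RA 1, KO_RA 2 or KO_RA 3 (adjusted p up to 0.125), and without WT_RA 3 and KO 1 together (adjusted p = 0.0776).

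Ugt3a2, whose human counterpart uses UDP-glucose and UDP-xylose rather than UDP-glucuronic acid, was the UDP-glucuronosyltransferase gene that rose. It was at 12.32, 12.39 and 12.41 in KO_RA, against 11.86, 11.85 and 11.57 in WT_RA, without overlap. The rise was 0.61 ± 0.13 (limma adjusted p = 0.0224), 1.53-fold. It was lost without any of WT_RA 3, KO_RA 1, KO_RA 2 or KO_RA 3 (adjusted p up to 0.0861), and without WT_RA 3 and KO 1 together (adjusted p = 0.055). On the normal diet the change was 0.34 ± 0.13 (limma adjusted p = 0.223), with 11.99, 12.20 and 12.34 in KO, against 11.99, 11.94 and 11.59 in WT.

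Of the 3 remaining UDP-glucuronosyltransferases, none passed by the probe set that stood for it. Ugt3a1, the neighbour of Ugt3a2 on chromosome 15, was at 9.82, 10.15 and 10.05 in KO_RA, against 9.64, 9.39 and 9.29 in WT_RA, a change of 0.57 ± 0.15 (limma adjusted p = 0.0602). It passed without WT 1 (0.57, limma adjusted p = 0.0429) and without WT 3 (0.57, adjusted p = 0.0419). Ugt3a1 also passed after a further quantile normalization (limma adjusted p = 0.0131), with dim probe sets left out (0.0491), with all its probe sets averaged (0.0298) and with array weights (0.0265). Its other probe set, adjusted over all probe sets, gave 0.45 ± 0.11, just inside the threshold (adjusted p = 0.0496). Ugt2b38 was at 10.39, 9.85 and 9.83 in KO, against 9.78, 8.26 and 9.24 in WT, a change of 0.93 ± 0.39 (limma adjusted p = 0.264), and it was at 8.73, 7.91 and 9.08 in KO_RA, -1.45 ± 0.39 against KO (adjusted p = 0.119). The groups did not overlap in either of these comparisons of Ugt2b38, whose SD reached 0.77 in WT. Ugt2a3 ran from 10.40 to 11.02 over all arrays, with changes of -0.29 to 0.05 in the 4 pairwise comparisons. The genes of the Ugt1a cluster, which includes the bilirubin-conjugating Ugt1a1, share their last exons. They were measured only by 3 probe sets that carry 8 gene symbols each, so they are not among the 36. These shared probe sets gave log2 changes of -0.20 to -0.40 for KO_RA against WT_RA (adjusted p = 0.0863 to 0.213 over all probe sets), and none was called in any contrast.

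**Figure D2:**
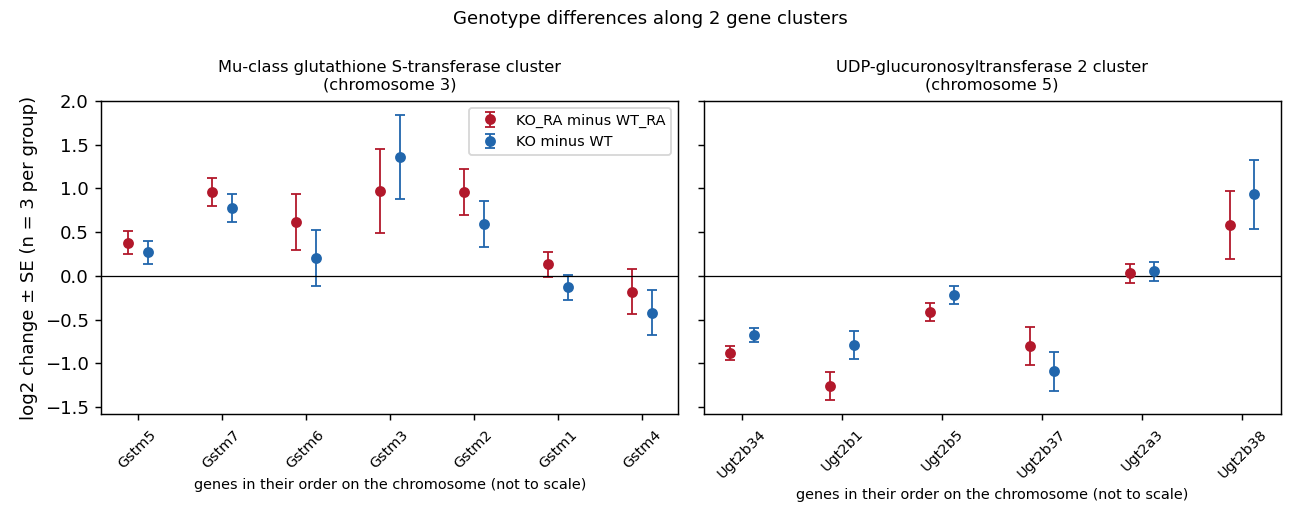
Log2 change ± SE (n = 3 arrays per group) for KO_RA minus WT_RA and KO minus WT, along the order of the measured genes in the mu-class glutathione S-transferase cluster on chromosome 3 and the UDP-glucuronosyltransferase cluster on chromosome 5; distances are not to scale. On chromosome 5 the values are -0.88 and -0.67 at Ugt2b34, -1.26 and -0.79 at Ugt2b1 and 0.58 and 0.93 at Ugt2b38, and on chromosome 3 those of Gstm7 are 0.96 and 0.78.

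Among the glutathione S-transferases, Gstm7 rose with RXRα deficiency on both diets, Gstt1 rose and Gstk1 fell on the normal diet, Gsta2 fell under RA, and Gsta4 and Gstp1 fell with RA in KO mice. Gsta2 belongs to the alpha class, which conjugates a wide range of xenobiotics and also reduces lipid peroxides. It was at 7.97, 8.29 and 8.64 in KO_RA, against 10.59, 10.22 and 9.16 in WT_RA. All KO_RA arrays were below all others, and WT_RA 3 lay more than 1 log2 unit below its group. Gsta2 fell by 1.69 ± 0.32 in KO_RA against WT_RA (limma adjusted p = 0.0137), 3.23-fold lower, the largest called change among the 36 genes. The call was lost without KO_RA 1 (adjusted p = 0.0691).

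Against KO, at 10.31, 9.65 and 9.65, KO_RA differed in Gsta2 by -1.57 ± 0.32, which did not pass (limma adjusted p = 0.0551). It passed without WT_RA 1 (-1.57, adjusted p = 0.0432), without WT_RA 3 (-1.57, adjusted p = 0.0113), and without WT_RA 3 and KO 1 together (-1.35, adjusted p = 0.0161). This change also passed after a further quantile normalization (limma adjusted p = 0.0444), with dim probe sets left out (0.0476) and with array weights (0.0223). WT_RA differed from WT, at 9.28, 9.68 and 9.17, by 0.62 ± 0.32, also not past the threshold (limma adjusted p = 0.509). The difference between these RA effects was -2.19 ± 0.45 (limma adjusted p = 0.139). Without WT_RA 3 it was -2.60 (adjusted p = 0.0429), without WT_RA 3 and KO 1 together -2.38 (adjusted p = 0.021), and with array weights -1.89 (adjusted p = 0.0306). The probe set shared by Gsta2, Gsta1 and Gm3776 read 7.45, 7.65 and 7.98 in KO_RA, against 10.28, 9.89 and 8.41 in WT_RA, a difference of -1.83 ± 0.38 (limma adjusted p = 0.028 over all probe sets), so which of these near-identical genes gave the signal is uncertain.

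Gsta4, whose enzyme removes 4-hydroxynonenal, a product of lipid peroxidation, was at 9.08, 9.42 and 9.10 in KO_RA, against 10.29, 10.13 and 10.25 in KO. It fell by 1.02 ± 0.13 (limma adjusted p = 0.0097), 2.03-fold lower. The call was lost without KO 3 (adjusted p = 0.0551). WT_RA arrays, at 9.74, 9.42 and 9.24, were also below those of WT, at 10.17, 9.97 and 9.97, by -0.57 ± 0.13, which did not pass (limma adjusted p = 0.0673). This change passed without WT_RA 1 (-0.71, limma adjusted p = 0.0239), after a further quantile normalization (-0.62, adjusted p = 0.0338) and with array weights (-0.49, adjusted p = 0.0111). The RA effects of the genotypes differed by -0.45 ± 0.19 (limma adjusted p = 0.387).

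Gstp1, the pi-class enzyme, was at 12.56, 12.42 and 12.54 in KO_RA, against 13.04, 13.69 and 13.51 in KO, without overlap. It fell by 0.90 ± 0.14 (limma adjusted p = 0.0252), 1.87-fold lower. Leaving out KO 2, KO 3 or any of the KO_RA arrays ended this call (adjusted p up to 0.0914). In wild type mice it was at 12.99, 12.92 and 12.76 in WT_RA, against 13.52, 13.41 and 13.66 in WT, a change of -0.64 ± 0.14 just outside the threshold (limma adjusted p = 0.0565). It passed without KO 1 (-0.64, adjusted p = 0.00961), without KO 2 (-0.64, adjusted p = 0.031), and without WT_RA 3 and KO 1 together (-0.58, adjusted p = 0.0356). The change also passed after a further quantile normalization (limma adjusted p = 0.0419), with dim probe sets left out (0.0472) and with array weights (0.006). With a trended and robust eBayes the limma adjusted p was 0.038, and with only the arrays compared 0.0413. Its difference between the genotypes' RA effects was -0.26 ± 0.20 (limma adjusted p = 0.681). Gstp3 had the opposite sign in KO mice, 0.22 ± 0.11 for KO_RA against KO (limma adjusted p = 0.38). The pi-class genes are close in sequence, and binding of their RNA to each other's probes was not tested.

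Gstm7, of the mu class, was at 10.17, 9.91 and 9.79 in KO_RA, against 9.10, 8.81 and 9.06 in WT_RA. It was at 10.10, 10.02 and 10.46 in KO, against 9.14, 9.53 and 9.59 in WT. Arrays of RXRα-deficient mice were above wild type arrays throughout. Gstm7 rose by 0.96 ± 0.16 under RA (limma adjusted p = 0.00604), 1.95-fold, and this call held without any 1 array. On the normal diet it rose by 0.78 ± 0.16 (limma adjusted p = 0.0349), 1.71-fold, a call lost without any of WT 1, WT 2, WT 3, KO 2 or KO 3, with adjusted p up to 0.128. A dimmer Gstm7 probe set gave a different picture, with 6.81 to 6.91 in KO_RA against 6.78 to 6.85 in WT_RA and changes of 0.06 ± 0.14 under RA and 0.13 ± 0.14 on the normal diet (limma adjusted p = 0.885 and 0.684 over all probe sets). The rise therefore rests on 1 of 2 probe sets. Mu-class genes are close relatives, and cross-hybridization between them was not tested.

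**Figure D3:**
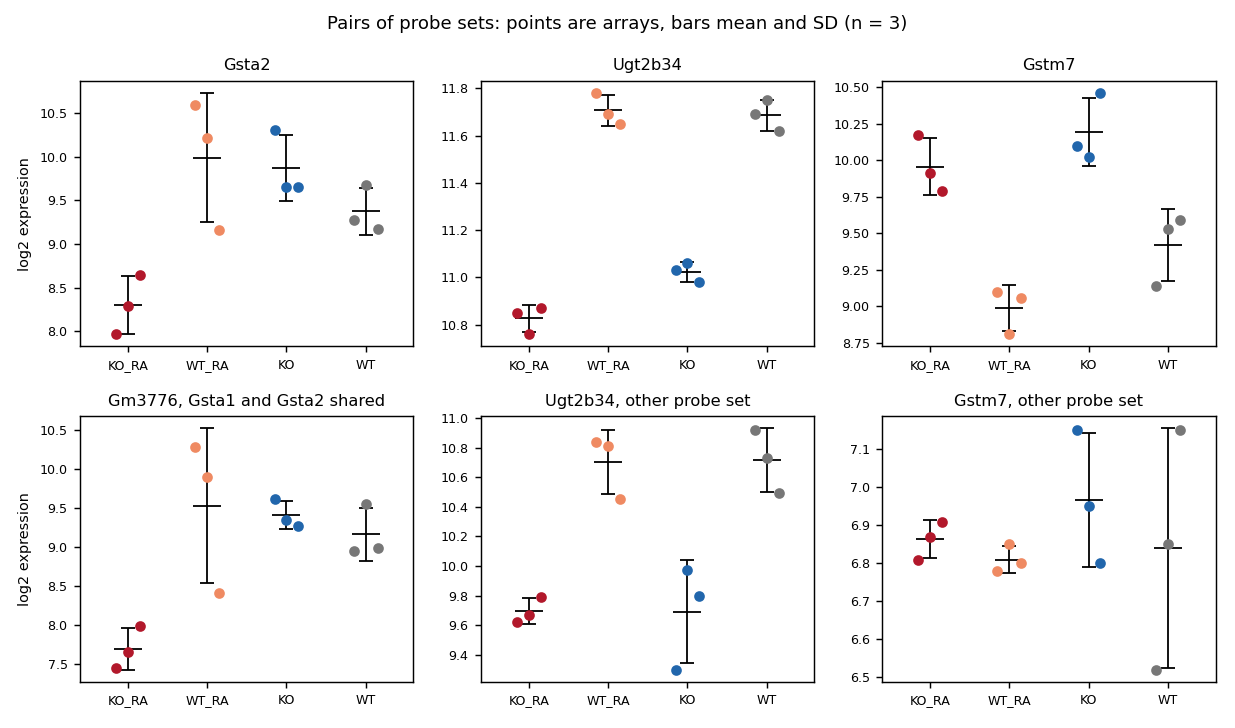
Log2 expression on each array for the probe set that stands for Gsta2, Ugt2b34 and Gstm7 (top) and for a further probe set of the same or shared genes (bottom), with points for arrays and bars for the mean and SD of 3 arrays; each panel has its own vertical scale. The Gsta2 and Ugt2b34 pairs have the same order of groups for KO_RA against WT_RA, with Ugt2b34 at 9.62 to 9.79 against 10.45 to 10.84 in its further probe set, while the further Gstm7 probe set reads 6.81 to 6.91 against 6.78 to 6.85.

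The 6 other mu-class genes lie beside Gstm7 on chromosome 3, and none was called. Gstm2 was at 10.41, 10.10 and 9.94 in KO_RA, against 9.80, 9.05 and 8.71 in WT_RA, a change of 0.96 ± 0.26 without overlap (limma adjusted p = 0.0606). It passed without WT_RA 1 (1.27, limma adjusted p = 0.0165) and without WT 1 (0.96, adjusted p = 0.0427). Gstm2 also passed with dim probe sets left out (limma adjusted p = 0.0493) and with array weights (adjusted p = 0.0301). For Gstm3 the change was 1.36 ± 0.48 on the normal diet (limma adjusted p = 0.196), with 11.17, 11.10 and 11.38 in KO, against 8.49, 10.59 and 10.49 in WT. Its WT arrays were far apart, WT 1 lying about 2 log2 units under the others. Gstm5 gave 0.38 ± 0.13 under RA (limma adjusted p = 0.129), at 8.73, 8.42 and 8.69 in KO_RA, against 8.36, 8.15 and 8.18 in WT_RA. Without WT 1 it passed narrowly (0.38, limma adjusted p = 0.0496), and it passed with array weights (0.43, adjusted p = 0.0275). Gstm6 was at 8.93, 7.85 and 7.92 in WT_RA, against 8.84, 9.76 and 9.31 in WT, a change of -1.07 ± 0.32 with overlap (limma adjusted p = 0.16). This change passed without WT_RA 1 (-1.42, limma adjusted p = 0.0484) and with array weights (-1.45, adjusted p = 0.0059). Gstm1 and Gstm4 ran the other way on the normal diet, -0.13 ± 0.14 and -0.42 ± 0.26 in KO against WT (limma adjusted p = 0.655 and 0.439).

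Gstk1, the kappa-class enzyme of mitochondria and peroxisomes, was at 9.87, 9.55 and 9.94 in KO, against 10.28, 10.45 and 10.44 in WT, without overlap. It fell by 0.60 ± 0.11 (limma adjusted p = 0.0249), 1.52-fold lower, and the call was lost without any of WT 2, WT 3 or KO 2, with adjusted p up to 0.0954. Under RA it was at 9.83, 9.99 and 9.77 in KO_RA, against 10.24, 10.18 and 10.20 in WT_RA, again without overlap, but the change of -0.34 ± 0.11 did not pass (limma adjusted p = 0.117).

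Gstt1, the theta-class enzyme that acts on small halogenated compounds, was at 11.51, 11.41 and 11.63 in KO, against 10.76, 10.90 and 10.89 in WT. It rose by 0.67 ± 0.13 (limma adjusted p = 0.0345), 1.59-fold. The call was lost without any of WT 1, WT 2, WT 3, WT_RA 2, KO 1, KO 2, KO 3 or KO_RA 1, with adjusted p up to 0.126. Under RA the groups overlapped, at 11.25, 11.13 and 11.45 in KO_RA, against 11.31, 11.05 and 10.76 in WT_RA, with a change of 0.23 ± 0.13 (limma adjusted p = 0.399).

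The further 8 glutathione S-transferases (Gsta3, Gstm1, Gstm4, Gsto1, Gstp3, Gstt2, Gstt3 and Gstz1) ran from -0.42 for Gstm4 in KO against WT to 0.74 for Gstt3 in WT_RA against WT. The smallest limma adjusted p among them was 0.217, for that change of Gstt3. Gstz1, which doubles as an isomerase of tyrosine breakdown, stayed within 10.76 to 11.53 on all arrays.

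**Figure D4:**
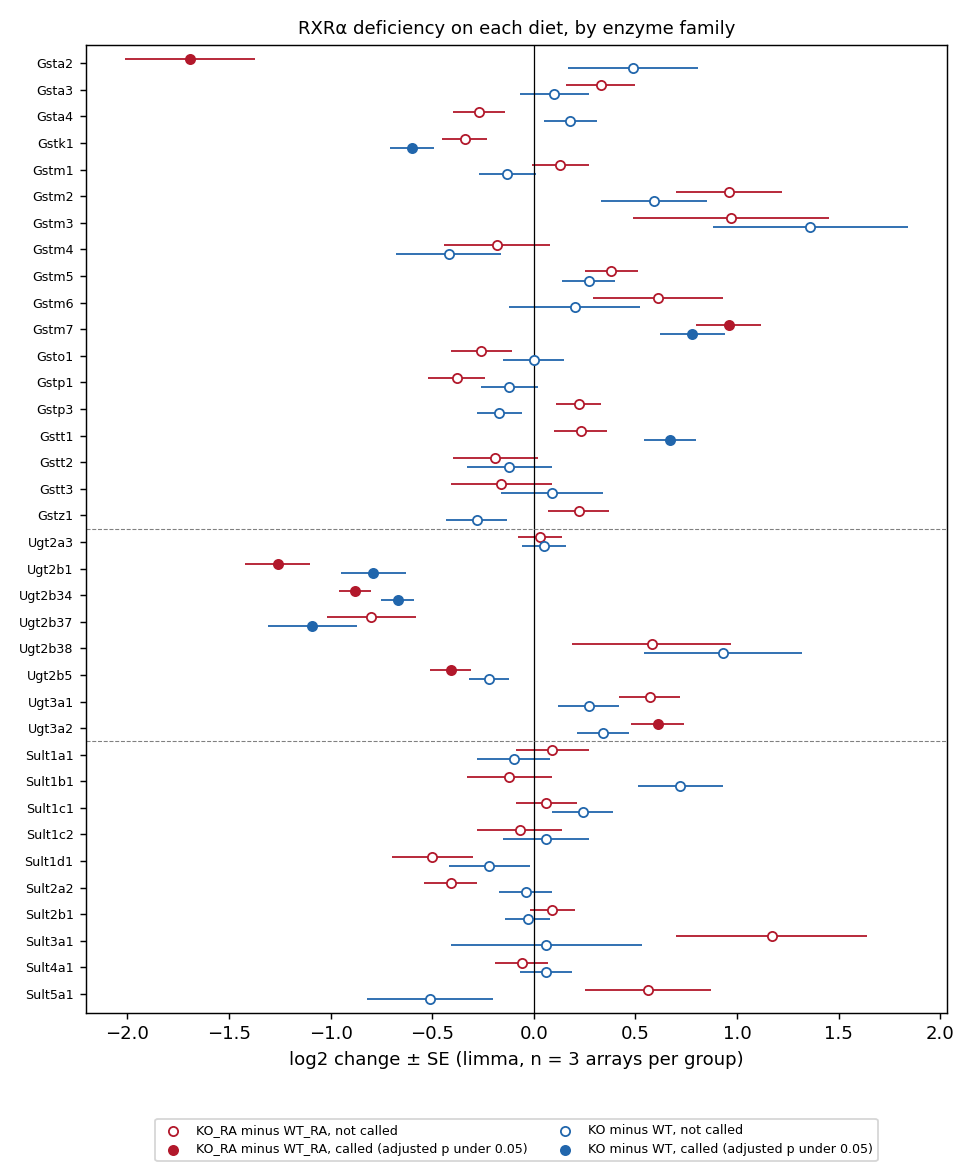
Log2 change ± SE (limma, n = 3 arrays per group) of all 36 genes, by family, for KO_RA minus WT_RA (red) and KO minus WT (blue); filled points passed an adjusted p of 0.05. The lowest filled point is Gsta2 under RA at -1.69 and the highest is Gstm7 under RA at 0.96. No sulfotransferase among the 36 is filled, and Sult1e1 is not among them.

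The 10 sulfotransferases described here had 0 called in any of the 5 contrasts. Sult1e1, which was left out of them, was called for KO against WT and for KO_RA against WT_RA. Of the 10, 1 had an unadjusted limma p under 0.05 for KO against WT, 3 for KO_RA against WT_RA, 2 for KO_RA against KO and 2 for WT_RA against WT. Of all genes 16.3%, 17.8%, 14% and 11.7% had such a p in these comparisons. Sult1d1, which sulfates catecholamines in the mouse, was at 10.47, 10.80 and 10.51 in WT_RA, against 9.93, 10.16 and 9.61 in WT, a change of 0.70 ± 0.20 (limma adjusted p = 0.147). The groups did not overlap, and a further Sult1d1 probe set gave 0.92 ± 0.23 (adjusted p = 0.119 over all probe sets). Sult1b1, an enzyme that sulfates thyroid hormones, was at 8.88, 8.38 and 9.0 in KO, against 7.52, 8.38 and 8.19 in WT, a change of 0.72 ± 0.21 (limma adjusted p = 0.133). These arrays met at 8.38.

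Sult2a2, of the subfamily that sulfates bile acids and dehydroepiandrosterone, was at 4.46, 4.48 and 4.50 in KO_RA, against 5.17, 4.72 and 4.77 in WT_RA. Its change of -0.41 ± 0.13 (limma adjusted p = 0.111) lies at the floor, since 11 of its 12 arrays were below their lower quartile. Sult3a1 was at 4.04, 6.54 and 4.20 in KO_RA and at 3.72 to 3.87 on the 9 other arrays. The value 6.54, from KO_RA 2 alone, gave the group an SD of 1.40, and the change of 1.17 ± 0.47 against WT_RA did not pass (limma adjusted p = 0.216). The 11 other arrays were below their lower quartile, so the size of this change is uncertain too. Sult1c1, Sult2b1 and Sult4a1 were below the lower quartile on 10 or 11 arrays each. The other 6 sulfotransferases (Sult1a1, Sult1c1, Sult1c2, Sult2b1, Sult4a1 and Sult5a1) ran from -0.51 to 0.56 in the 4 pairwise comparisons, both for Sult5a1. Its RA effects in the 2 genotypes differed by 1.07 ± 0.44 (limma adjusted p = 0.379). A p that misses the threshold does not show that these genes were unchanged. For Sult1a1, the main phenol sulfotransferase of liver, the 95% interval of the KO against WT change was -0.49 to 0.29.

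**Figure D5:**
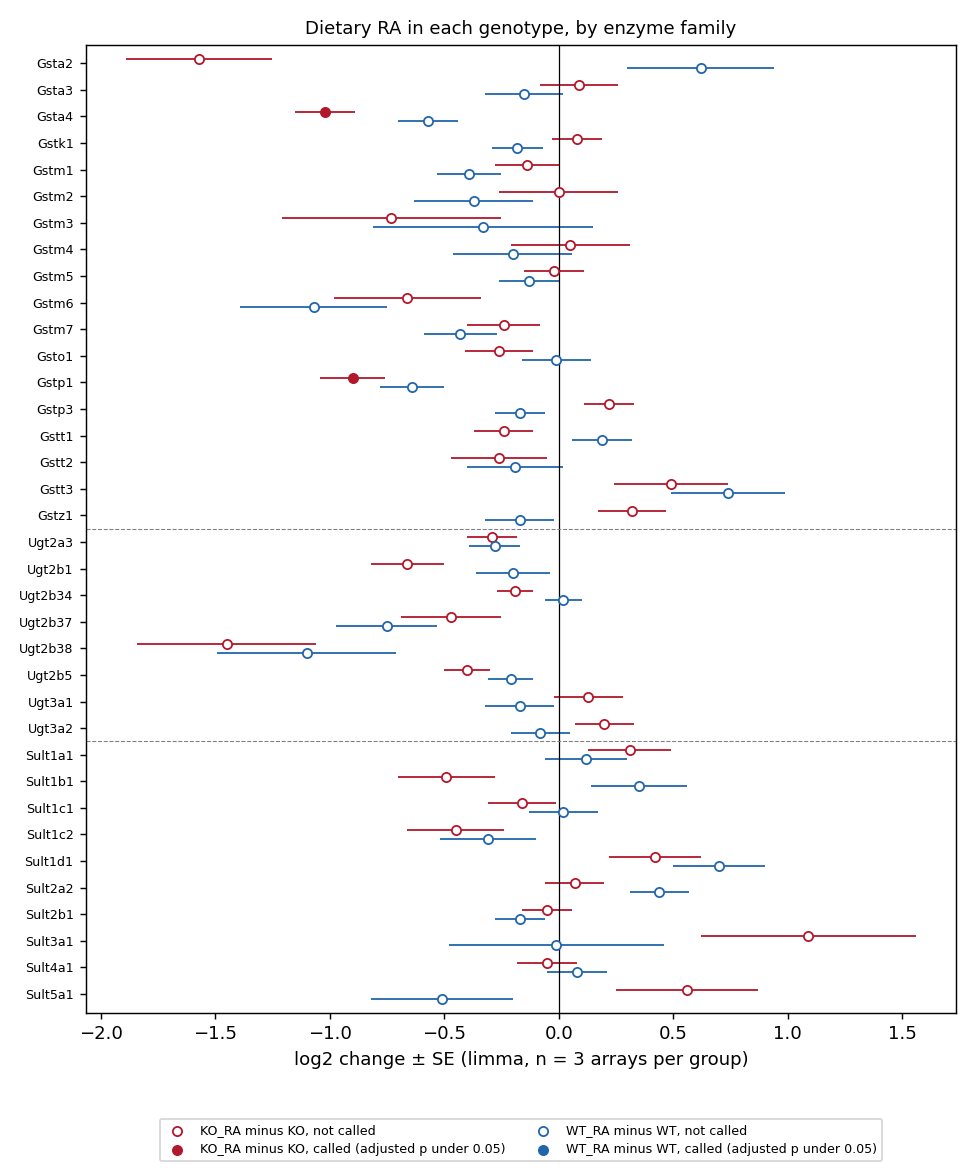
Log2 change ± SE (limma, n = 3 arrays per group) of all 36 genes, by family, for KO_RA minus KO (red) and WT_RA minus WT (blue); filled points passed an adjusted p of 0.05. The 2 filled points are Gsta4 at -1.02 and Gstp1 at -0.90, both in KO mice, and the values of Gsta2 are -1.57 and 0.62.

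Markers of other cells moved with some of these contrasts. For KO against WT, 10 of 10 Kupffer cell and macrophage markers had a positive change and an unadjusted p under 0.05, with a median of 1.22 and 0 called. For WT_RA against WT their median was 0.97 and Cd14 alone was called. For KO_RA against WT_RA the summed levels overlapped (11.41 to 11.68 against 11.45 to 12.40), with a median change of -0.35 and 0 of 10 called. Markers of endothelial cells summed to 10.51 to 10.77 in KO, against 10.01 to 10.41 in WT. With RA, erythroid markers summed to 7.05 to 7.94 in KO_RA, against 10.75 to 11.05 in KO, where Gsta4 and Gstp1 fell. Of these 3 markers Alas2 alone was called (-3.68 ± 0.67, limma adjusted p = 0.0405), and their median change was -0.15. Exocrine pancreas markers summed to 9.36 to 10.06 in KO_RA, against 10.39 to 10.65 in KO, with a median change of -0.21 and 0 of 3 called. Stellate cell markers summed to 10.51 to 10.76 in KO_RA, against 10.95 to 11.04 in KO, with a median change of -0.09 and 0 of 6 called. For endothelial markers these sums were 10.16 to 10.35 against 10.51 to 10.77, with a median of -0.23 and 0 of 6 called. Kupffer cell and macrophage sums overlapped there (11.41 to 11.68 against 11.26 to 13.39), with a median of -0.58 and 0 of 10 called. In wild type mice the erythroid sums were 7.27 to 10.32 in WT_RA, against 10.62 to 10.78 in WT. Those of exocrine pancreas were 9.33 to 10.06, against 10.20 to 10.54. Neutrophil markers summed to 8.29 to 9.88 in WT_RA, against 7.66 to 8.17 in WT. No erythroid, exocrine pancreas or neutrophil marker was called for WT_RA against WT. Intestine markers, with 2 of 3 below the lower quartile on average, summed to 7.73 to 8.10 in KO_RA, against 8.70 to 8.90 in WT_RA, with Fabp2 alone called (-0.97 ± 0.14, limma adjusted p = 0.00348) and a median change of 0. The part of these cells in the changes above was not tested.

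Genes that supply and export the conjugates also differed, from lists chosen with earlier results of these data known. These calls, and those of targets and regulators given after them, were not recomputed without single arrays. Of 10 genes for the donors of glucuronic acid and sulfate, Ugp2, which makes UDP-glucose, rose by 0.71 ± 0.15 in KO (limma adjusted p = 0.0377) and by 0.69 ± 0.15 in KO_RA against WT_RA (adjusted p = 0.0229). Under RA 3 others fell with RXRα deficiency: Bpnt1, which clears the by-product of sulfation, by 0.53, Papss1, a synthase of PAPS, by 0.44, and Slc35d1, a carrier of UDP-glucuronic acid into the endoplasmic reticulum, by 0.37. Of 9 efflux transporters of conjugates, Abcc3 fell by 1.51 ± 0.27 in KO (limma adjusted p = 0.0237) and by 1.65 ± 0.27 in KO_RA against WT_RA (adjusted p = 0.00638), and Abcg2 fell by 0.89 ± 0.15 in KO_RA against WT_RA. Among 12 other conjugating enzymes, Tpmt, which methylates thiopurines, fell by 1.32 ± 0.19 in KO_RA against KO (limma adjusted p = 0.0163) and by 1.59 ± 0.19 in KO_RA against WT_RA (adjusted p = 0.000924), and Nnmt, which methylates nicotinamide, rose by 1.87 ± 0.36 in KO_RA against KO (adjusted p = 0.0438). None of 14 genes of glutathione synthesis and recycling, 5 microsomal glutathione transferases and relatives, and 4 deconjugating enzymes passed in any contrast, with 6, 1 and 0 of them at an unadjusted limma p under 0.05 for KO against WT.

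Targets and regulators of the pathway gave a mixed picture. Of 18 CAR and PXR targets, Ces2a rose and Cyp2c29, Cyp2c37 and Abcc3 fell in KO against WT. In KO_RA against WT_RA the same 4 genes were called in these directions, together with falls of Cyp2b10 (1.79 ± 0.25, limma adjusted p = 0.0029) and Cyp2c38. Of 16 NRF2 targets measured, Ces1g alone was called for RXRα deficiency, with -1.94 ± 0.35 on the normal diet (limma adjusted p = 0.023) and -2.10 ± 0.35 under RA (adjusted p = 0.00652). Among 18 nuclear receptors and regulators, Ahr, the dioxin receptor, rose by 1.19 ± 0.18 with RA in wild type mice (limma adjusted p = 0.00857), and Cebpa, a hepatocyte transcription factor, fell by 0.85 ± 0.13 (adjusted p = 0.0102). In KO_RA against WT_RA, which shares the WT_RA arrays with that comparison, the changes were -0.89 ± 0.18 for Ahr (limma adjusted p = 0.0177) and 0.53 ± 0.13 for Cebpa (adjusted p = 0.0448). Of 11 male-predominant liver genes, Elovl3, Hsd3b5 and Cyp4a12a fell with RA in wild type mice, and Elovl3 (-2.39 ± 0.33, limma adjusted p = 0.0156) and Keg1 (-1.52 ± 0.28, adjusted p = 0.0405) fell with RA in KO mice. With RXRα deficiency Elovl3 fell on the normal diet (-2.83 ± 0.33, limma adjusted p = 0.00197) and Susd4 rose under RA (1.22 ± 0.26, adjusted p = 0.0233). Of 9 female-predominant genes Prom1 alone was called, at 1.35 ± 0.14 for RA in wild type mice (limma adjusted p = 0.000748) and -1.40 ± 0.14 for KO_RA against WT_RA (adjusted p = 0.000369). Of 7 AHR targets, Tiparp alone was called, rising with RA in wild type mice (1.07 ± 0.21, limma adjusted p = 0.0293).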

How the data were processed

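The values deposited by the authors are log2 expression, 1 for each probe set on each array. RMA and Partek 6.11 are named in the submitters' processing notes, whereas the study's methods name MAS5 with a detection filter. Scanner files were not used here. Of 22690 probe sets, 64 were controls, 20380 carried 1 symbol, 691 several and 1555 none. Each gene was represented by its brightest probe set on average, without a filter on dim probe sets, and 8 of the 36 genes had more than 1. All 36 symbols matched RefSeq. All 12 arrays and 12393 genes entered 1 linear model of the 4 group means (R 4.3.3, limma 3.58.1, lmFit, contrasts.fit and eBayes, two-sided), with 8 residual degrees of freedom. Other probe sets were adjusted over all 22626 non-control probe sets. The fit was tested on simulated data. The genes, 12 pathway lists and 11 marker lists were chosen with earlier results of these data known. Every called gene, and up to 4 more per family with the smallest adjusted p, were named with values. The alternatives were a replicate block, scaling, probe set choice, dim filter, array weights, eBayes settings, fewer arrays and other thresholds.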

Additional observations from a re-analysis of the deposited data

How the results depend on the processing

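No call reversed its sign under any alternative, and 4 of the 14 calls held in all 12 fits without 1 array (Ugt2b34 on both diets, Gstm7 and Ugt2b1 under RA). The number of conjugation genes called for WT_RA against WT was 0, but 2 after a further quantile normalization, 1 with dim probe sets left out, 6 with array weights, 1 with a trended and robust eBayes, 1 with only the arrays compared, 1 without WT_RA 3 and KO 1 together, 2 at an adjusted p under 0.10, and 0 to 2 without 1 array. For KO against WT the 6 calls became 3 with the replicate block, 12 with array weights, 2 with only the arrays compared, 1 where a change of at least 1 was also asked for, and 1 to 6 without 1 array. They were 4 after a further quantile normalization, and 5 with dim probe sets left out, with probe sets averaged or with the most variable probe set. For KO_RA against KO the 2 calls became 5 with array weights, 1 with only the arrays compared, 1 with a change of at least 1, 5 at an adjusted p under 0.10, and 0 to 3 without 1 array. They were 3 after a further quantile normalization, with dim probe sets left out, and without WT_RA 3 and KO 1 together. For KO_RA against WT_RA the 6 calls became 11 with array weights, 2 with a change of at least 1, and 3 to 10 without 1 array. They were 4 without WT_RA 3 and KO 1 together, 8 with dim probe sets left out and 9 at an adjusted p under 0.10. With the replicate block, with probe sets averaged or with only the arrays compared they were 7. For the difference between the RA effects, 0 became 2 with array weights, 1 without WT_RA 3 and KO 1 together, and 0 to 1 without 1 array, Gsta2 being the gene called without WT_RA 3. The causes were not tested.

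For arrays that share a replicate number, the 18 correlations of their deviations were -0.46 to 0.27, and 5 were over 0.1. The titles do not say that the numbers pair the mice, and these correlations cannot settle it. The replicate block ended the KO against WT calls of Gstk1 (adjusted p = 0.0542), Gstm7 (0.0621) and Gstt1 (0.0678). A further quantile normalization left 4 calls there, ending those of Gstk1 (0.0651) and Ugt2b1 (0.0609), and ended that of Ugt2b5 under RA (0.0665). Averaging all probe sets of a gene gave Gstm7 0.45 in KO against WT (adjusted p = 0.0979). Dim probe sets left out removed Ugt2b37 and left 29 genes, and using only the arrays compared gives no value for the difference between the RA effects. Calls near the floor of the arrays, such as that of Ugt2b37, are limited by signal over background.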
